A study of Canis lupus familiaris with 6 samples.

Results

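The genes of 4 secreted peptide hormones and of 1 receptor were followed across 6 libraries of dog fat-derived cells. They were parathyroid hormone-like hormone (PTHLH), its receptor PTH1R, neuromedin B (NMB) and the stanniocalcins STC1 and STC2. These 5 genes were picked by name from the 23299 genes of the deposited table. PTHLH and NMB were picked because they were already known to lie low with bisphenol A in these libraries, so the difference between treatments in these genes is described here and not tested. The libraries were made from canine adipose-derived stem cells (cADSC), precursor cells of dog fat, at day 14 of adipogenic differentiation. A set of 3 libraries was labelled as differentiated with the solvent DMSO (control, n = 3) and 3 as differentiated with 1 µM bisphenol A (BPA, n = 3), a plastics monomer that binds oestrogen receptors. Both groups shared a medium with 1 µM dexamethasone (a glucocorticoid), 200 nM rosiglitazone (a PPARG agonist) and 10 µg/mL insulin, added after 2 days of culture. The labels do not say how many dogs gave cells or whether replicates were separate cultures, so any p-value measures only the spread between these libraries, which may be technical.

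PTHLH encodes a secreted protein related to parathyroid hormone. It acts over short distances through PTH1R, a receptor coupled to G proteins that raise cyclic AMP and release calcium, and it is known for holding back cartilage maturation and for promoting the browning of fat in wasting disease. NMB encodes a bombesin-like neuropeptide that acts through the receptor NMBR and is also made by human fat tissue. The stanniocalcins are secreted glycoproteins, named after a calcium-lowering hormone of fish, that block the protease PAPP-A and so limit the release of insulin-like growth factors.

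Values are TPM, the length-scaled share of a transcript in its library out of 1000000, read back from the deposited log2(TPM + 1) values. Read depth cannot be recovered from this unit, so the depth behind each level is not known. The first principal component, with 79.8% of the variance, did not follow the treatment. BPA replicate 3 stood apart with a score of 61.1 on it, where the other 5 libraries lay between -29.9 and 11.3. Results that rest on that library are therefore given with and without it. Stromal genes were expressed, with 11 measured markers summing to 13097 to 22723 TPM in control libraries and 13902 to 47310 TPM in BPA libraries. Their median log2 difference between BPA and control was 0.40, or -0.10 without BPA replicate 3. Smooth muscle and pericyte markers, 7 of them measured, summed to 9716 to 10922 TPM in control and 8461 to 10572 TPM with BPA. These sums therefore do not single out the labelled cell type.

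PTHLH was lower in every BPA library than in every control library. It stood at 7.53, 6.62 and 7.39 TPM in control replicates 1, 2 and 3 and at 4.68, 4.06 and 3.6 TPM in BPA replicates 1, 2 and 3. The groups did not overlap: the lowest control library was 1.41 times the highest BPA library. The mean was 7.18 ± 0.491 TPM (SD, n = 3) in control and 4.11 ± 0.541 TPM (SD, n = 3) with BPA, a ratio of 0.573. On the log2(TPM + 1) scale the difference was -0.68 (SE 0.12), and 49 of the 12277 tested genes had a lower value. Genes were tested where the mean log2(TPM + 1) was at least 1. In these bulk libraries, fewer cells that express the gene and less RNA per cell cannot be told apart.

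NMB showed the same arrangement of the groups. It stood at 11.1, 8.47 and 11 TPM in control replicates 1, 2 and 3 and at 4.87, 6.59 and 5.27 TPM in BPA replicates 1, 2 and 3. All 3 BPA libraries lay below all 3 control libraries, and the lowest control library was 1.29 times the highest BPA library. The means were 10.2 ± 1.49 TPM (SD, n = 3) and 5.57 ± 0.898 TPM (SD, n = 3), a ratio of 0.547 and a log2 difference of -0.77 (SE 0.15). Control replicate 2 was the lowest control library for both genes. Among the BPA libraries the order differed, with replicate 3 lowest for PTHLH and replicate 1 lowest for NMB.

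**Figure D1:**
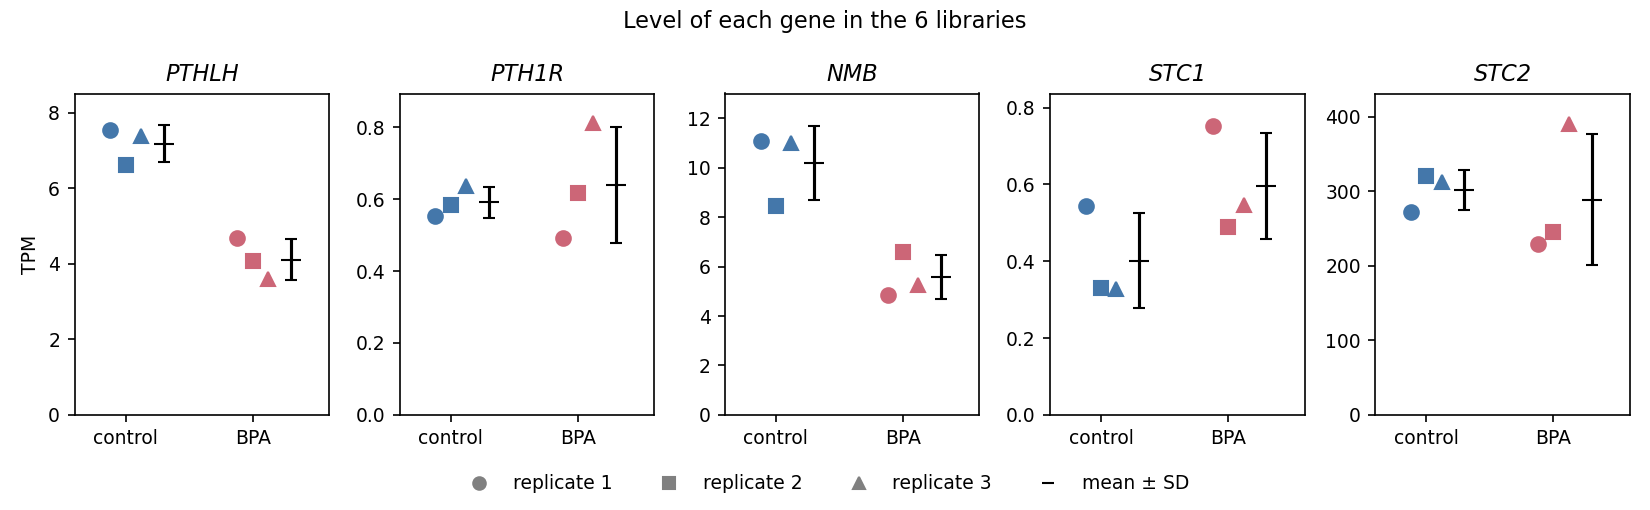
TPM of PTHLH, PTH1R, NMB, STC1 and STC2 (y axis, a separate scale from 0 for each gene) in the 3 control and 3 BPA libraries, 1 symbol per library, with the mean ± SD beside each group. The BPA libraries sit below the control libraries for PTHLH (3.6 to 4.68 against 6.62 to 7.53 TPM) and NMB (4.87 to 6.59 against 8.47 to 11.1 TPM), and the groups overlap for the other 3 genes.

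Neither difference passed the test across all genes. By limma with Benjamini-Hochberg adjustment the adjusted p was 0.901 for both PTHLH and NMB, which is given as a description because the same contrast chose them. The tested genes passing an adjusted p of 0.05 made up 0% of 12277 (0 genes), and 439 genes (3.58%) had an unadjusted p under 0.05. Of the 3 members that were tested, 2 had BPA libraries wholly below control, an arrangement found in 489 of all tested genes (3.98%). Nothing can be read from that count, since the contrast was used to choose them.

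Leaving out each library in turn gave log2 differences between -0.76 and -0.61 for PTHLH and between -0.88 and -0.69 for NMB. Since the groups of both genes do not overlap, leaving out a library could not turn the sign, and the range only describes the size. Without BPA replicate 3 they were -0.61 (SE 0.10) and -0.74 (SE 0.17).

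**Figure D2:**
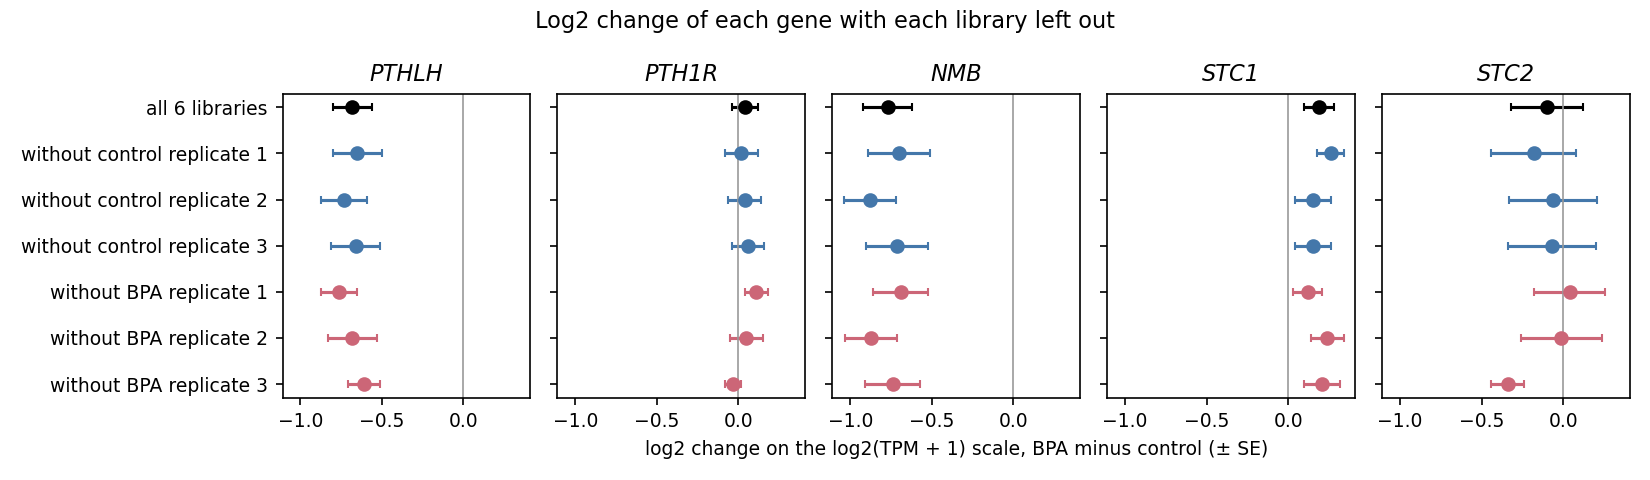
Log2 difference between BPA and control (x axis, log2(TPM + 1) scale, ± SE) for each gene with all 6 libraries (black) and with 1 control (blue) or 1 BPA library (red) left out. PTHLH stays between -0.76 and -0.61 and NMB between -0.88 and -0.69, while STC2 runs from -0.34 without BPA replicate 3 to 0.04 without BPA replicate 1.

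**Figure D3:**
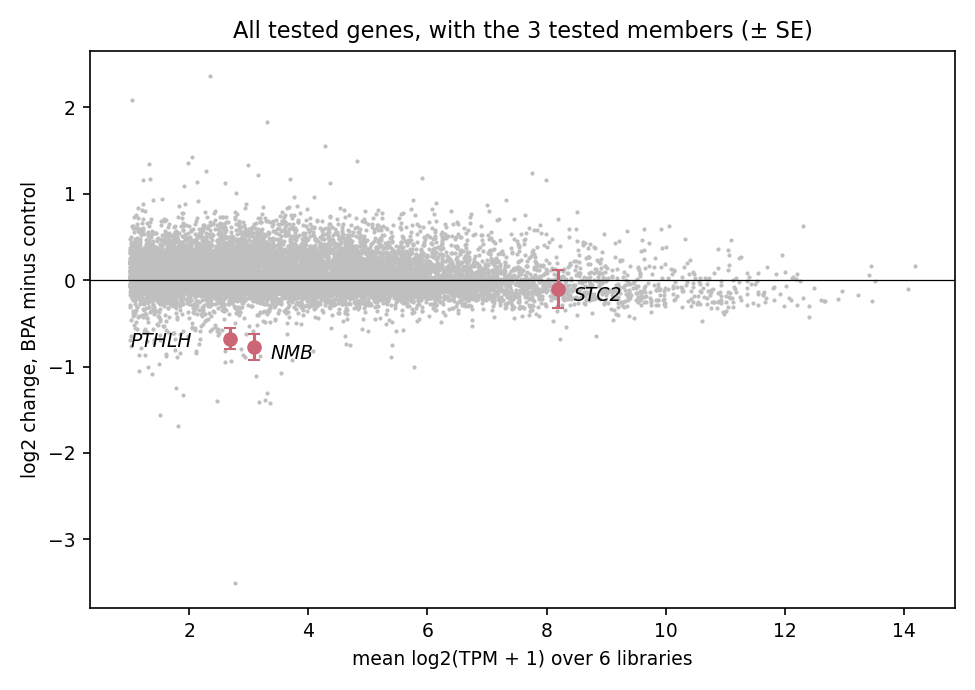
Log2 difference between BPA and control (y axis) against the mean log2(TPM + 1) over 6 libraries (x axis) for the 12277 tested genes (grey), with the 3 tested members in red (± SE). PTHLH at -0.68 and NMB at -0.77, chosen for low values with BPA, lie at the lower edge of genes of their level. STC2 at -0.10 lies within the cloud.

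PTH1R, the receptor that PTHLH binds, was low in all 6 libraries. It stood at 0.552, 0.584 and 0.636 TPM in control replicates 1, 2 and 3 and at 0.491, 0.617 and 0.811 TPM in BPA replicates 1, 2 and 3. The groups overlapped, with BPA libraries both lowest and highest. It fell under the level filter and was not tested; the fit without a filter gave a log2 difference of 0.04 (SE 0.08), with a sign that turned to -0.04 under median centring and to -0.03 without BPA replicate 3. In TPM, PTHLH exceeded its receptor 11.3-fold to 13.6-fold in control libraries and 4.44-fold to 9.54-fold in BPA libraries.

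PTH and PTH2R had low levels too, whereas RAMP2 did not. PTH, the related hormone of the parathyroid gland, ranged from 0 to 0.351 TPM in control and from 0 to 0.517 TPM with BPA. PTH2R, the second receptor of this family, did not exceed 0.0133 TPM in any library. RAMP2, an accessory protein that can pair with PTH1R, averaged 3.75 ± 0.923 TPM in control and 3.94 ± 1.45 TPM with BPA (SD, n = 3 each), and its groups overlapped.

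**Figure D4:**
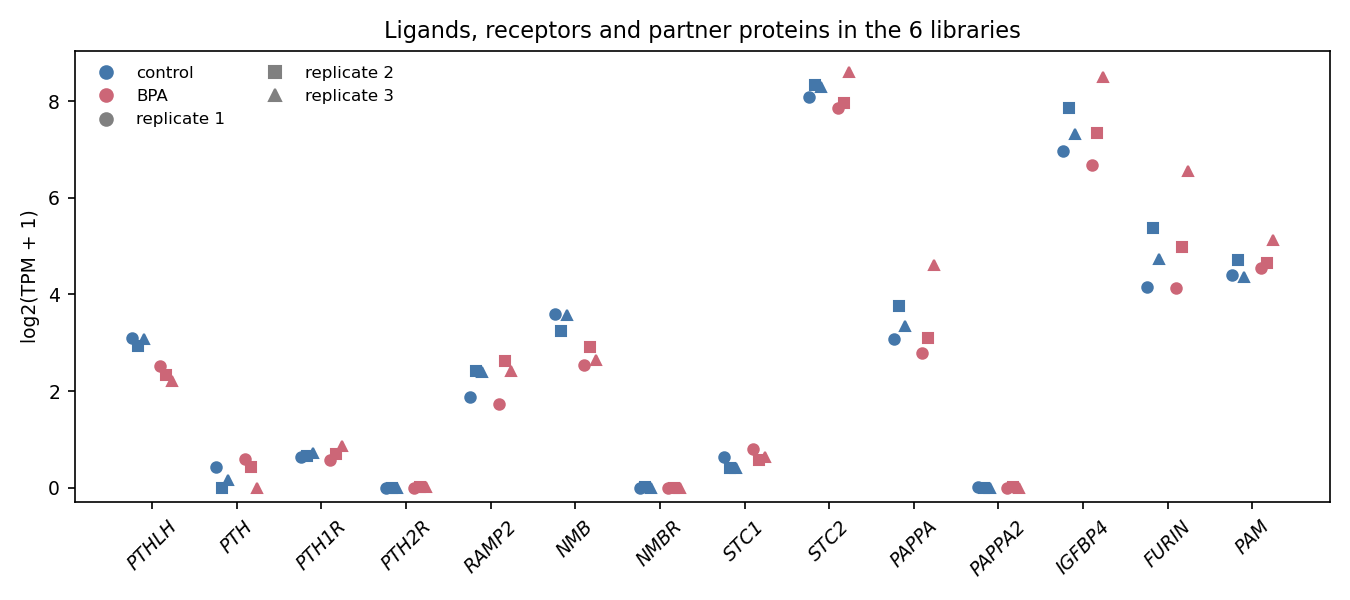
Level on the log2(TPM + 1) scale (y axis) of ligands, receptors and partner proteins in the 3 control (blue) and 3 BPA (red) libraries, with symbols for the replicate number. The ligand genes PTHLH, NMB and STC2 are well above the receptor genes PTH1R, PTH2R and NMBR, and BPA replicate 3 is the highest library for STC2, PAPPA, IGFBP4, FURIN and PAM.

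Genes of signalling downstream of PTH1R were expressed, and 0 of 27 tested passed by limma. Of these 27, 20 lay above and 7 below control, with a median log2 difference of 0.16, beside 0.03 over all tested genes. The list included GNAS, the stimulatory G protein subunit, at 133 ± 11.3 TPM in control and 144 ± 29.2 TPM with BPA, and GNAQ, which couples to phospholipase C, at 3.33 ± 0.179 and 3.46 ± 0.166 TPM (SD, n = 3 each). ARRB1, an arrestin that ends receptor signalling, had the smallest p of the list. It stood at 0.8, 0.923 and 0.738 TPM in control replicates 1, 2 and 3 and at 1.36, 1.56 and 2.25 TPM in BPA replicates 1, 2 and 3, a log2 difference of 0.57 (SE 0.14; adjusted p = 0.901 by limma). The BPA values of ARRB1 were all higher than its control values, as for 661 of the tested genes (5.38%). ARRB1 reached the level for testing only through its BPA libraries. Its mean log2(TPM + 1) was 0.86 in control and 1.43 with BPA, so its place in the list says little. CREM, a cyclic AMP-responsive transcription factor, followed with overlapping groups at 1.74 ± 0.0883 and 1.40 ± 0.235 TPM. Without BPA replicate 3 the list was even, with 14 above, 13 below and a median of 0.01.

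PTHLH works in cartilage in a loop with hedgehog signals, and that list also showed 0 passing genes of 8 tested. Of these 7 lay above control, with a median log2 difference of 0.20, but without BPA replicate 3 the median was -0.11 and 7 lay below. BMP4, a bone morphogenetic protein, was the 1 gene of the list with an unadjusted p under 0.05, where 1.87% of tested genes were higher at that level. It averaged 0.873 ± 0.0167 TPM in control and 1.15 ± 0.0547 TPM with BPA, without overlap. BMP4 reached the level for testing only through its BPA libraries. Its mean log2(TPM + 1) was 0.91 in control and 1.10 with BPA, so its place in the list says little. CDON, a hedgehog co-receptor, overlapped at 10.3 ± 1.00 and 12.3 ± 4.10 TPM. GLI1, a transcript induced by hedgehog signalling, reached at most 0.742 TPM, in BPA replicate 3. TNFSF11, the osteoclast factor that PTH1R signalling induces in bone, was listed at 0 in 5 of 6 libraries.

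NMBR, the receptor for NMB, was at or near 0 throughout. It was listed at 0 in 5 of 6 libraries and at 0.0104 TPM in control replicate 2. The related peptide gene GRP and the receptor genes GRPR and BRS3 were not analysed here. Of the calcium release channels that bombesin receptors open through inositol trisphosphate, ITPR1 averaged 4.52 ± 0.380 TPM in control and 5.22 ± 0.961 TPM with BPA. Apart from NMB, 3 genes of this list were tested, all 3 lay above control by a median of 0.16, and 0 passed. Without BPA replicate 3 their median was 0.04, with 2 above.

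STC2 was the most abundant of the 5 genes. It stood at 272, 321 and 313 TPM in control replicates 1, 2 and 3 and at 230, 246 and 390 TPM in BPA replicates 1, 2 and 3. BPA replicates 1 and 2 lay below every control library, while BPA replicate 3 lay above every one, so the groups overlapped. The means were 302 ± 26.5 TPM and 289 ± 88.4 TPM (SD, n = 3 each), with a log2 difference of -0.10 (SE 0.22; adjusted p = 0.914 by limma). Without BPA replicate 3 the log2 difference was -0.34 (SE 0.10), and without BPA replicate 1 it was 0.04.

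STC1 was the least abundant of the 5 genes. It stood at 0.544, 0.33 and 0.328 TPM in control replicates 1, 2 and 3 and at 0.751, 0.488 and 0.546 TPM in BPA replicates 1, 2 and 3. Control replicate 1 lay among the BPA libraries, so the groups overlapped, and the level was too low for testing. The means were 0.401 ± 0.124 TPM and 0.595 ± 0.138 TPM (SD, n = 3 each), and the fit without a filter gave a log2 difference of 0.19 (SE 0.09). In TPM, STC2 exceeded STC1 by 306-fold to 971-fold over the 6 libraries.

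Of the PAPP-A system, PAPPA and IGFBP4 were highest in BPA replicate 3. PAPPA, the protease that stanniocalcins block, stood at 7.39, 12.6 and 9.21 TPM in control replicates 1, 2 and 3 and at 5.93, 7.54 and 23.3 TPM in BPA replicates 1, 2 and 3. IGFBP4, its substrate, which holds insulin-like growth factors, stood at 123, 230 and 158 TPM in control and at 102, 161 and 362 TPM with BPA in the same order. For both genes BPA replicate 1 was lowest and BPA replicate 3 highest, as for STC2. PAPPA2 did not exceed 0.00379 TPM. Apart from the members, the 4 tested genes of the list all lay above control with a median of 0.14, and all 4 lay below without BPA replicate 3, with a median of -0.28. None of the 4 passed by limma in either fit. IGFBP5 and the receptor IGF1R, the genes of smallest p among them, overlapped at 1.10 ± 0.596 against 1.53 ± 1.10 TPM and at 2.91 ± 0.704 against 3.59 ± 2.09 TPM.

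Calcium and phosphate handling genes, the field in which stanniocalcins were first described, had 0 of 13 tested genes passing. Of these 11 lay above control (median 0.27), but 5 without BPA replicate 3 (median -0.03). The calcium entry channels ORAI3 and ORAI1 had the smallest p and overlapped, at 54.4 ± 17.1 against 83.8 ± 46.1 TPM and at 2.41 ± 0.515 against 3.74 ± 2.40 TPM.

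Peptide hormones are cut from precursors and modified, and 16 of 21 measured genes of such processing reached the level for testing. FURIN, a convertase of the secretory pathway, stood at 16.9, 40.7 and 25.7 TPM in control replicates 1, 2 and 3 and at 16.6, 30.5 and 92.5 TPM in BPA replicates 1, 2 and 3, with wide overlap. PAM, which amidates the end of peptides such as neuromedin B, averaged 21.7 ± 3.03 TPM in control and 26.8 ± 6.22 TPM with BPA, also with overlap. Of 16 tested processing genes 12 lay above and 4 below control, with a median log2 difference of 0.13 and 0 passing. Leaving out BPA replicate 3 brought the list closer to even, with 9 above, 7 below and a median of 0.04. CPM, a membrane carboxypeptidase, was the 1 gene lower at an unadjusted p under 0.05, where 1.70% of tested genes were lower at that level. It averaged 1.90 ± 0.0573 TPM in control and 1.5 ± 0.129 TPM with BPA. QPCT, which forms pyroglutamate at the start of peptides, averaged 17.6 ± 1.16 and 15.0 ± 0.937 TPM, also without overlap.

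Among 43 secreted peptide hormone genes with a row in the table, members included, STC2 ranked 2, NMB 11, PTHLH 13 and STC1 18 by mean TPM. Adrenomedullin (ADM), a vasodilator peptide, ranked first at 2238 ± 144 TPM in control and 2247 ± 273 TPM with BPA. Of the 43, 28 averaged under 1 TPM. Apart from the members, 12 were tested, of which 5 lay above and 7 below control with a median of -0.08, and 0 passed by limma. At an unadjusted p under 0.05, 3 were lower and 1 was higher, beside 1.70% and 1.87% of all tested genes. The lower ones were the activin subunit INHBA at 60.2 ± 4.50 against 46.3 ± 4.96 TPM and, named after their values were seen, the vasoconstrictor EDN1 and the satiety hormone LEP. EDN1 stood at 5.44, 4.86 and 6.31 TPM in control replicates 1, 2 and 3 and at 4.22, 3.75 and 2.56 TPM in BPA replicates 1, 2 and 3, a log2 difference of -0.55 (SE 0.18). The higher one was the adipocyte hormone ADIPOQ, with a log2 difference of 1.55 (SE 0.26). The counts were 4 above and 8 below without BPA replicate 3.

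**Figure D5:**
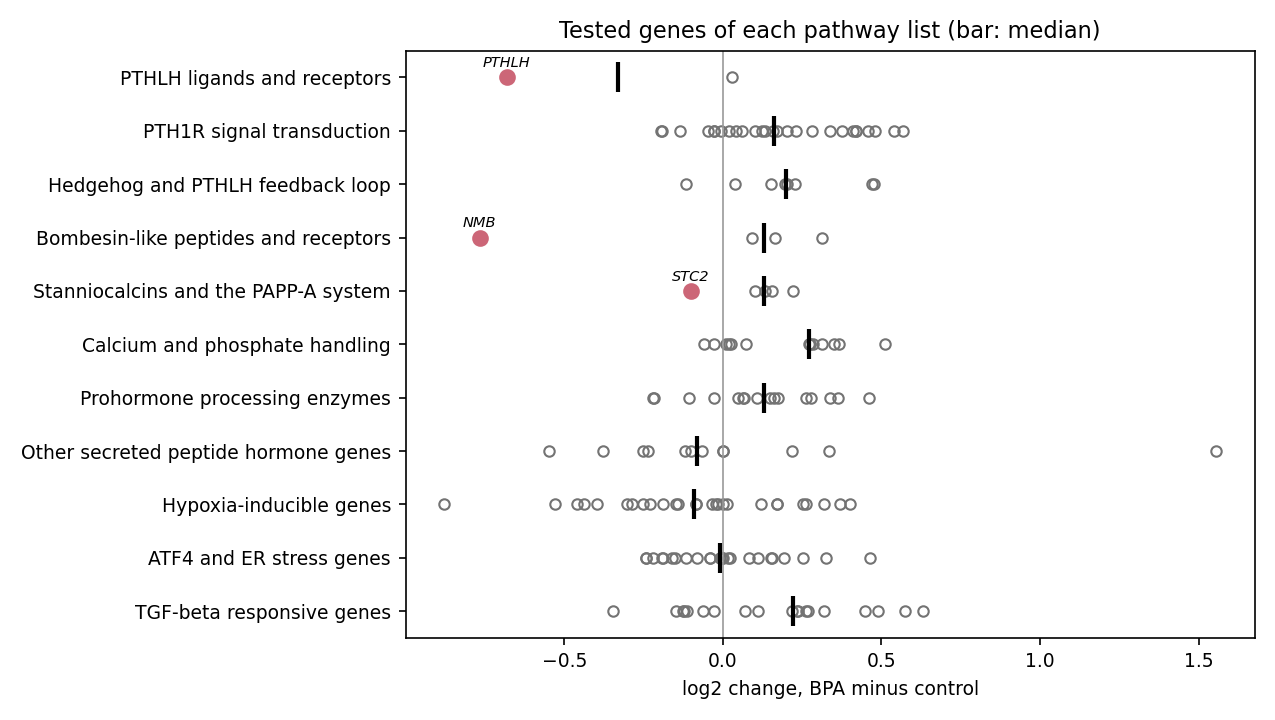
Log2 difference between BPA and control (x axis) of each tested gene (circles) in 11 pathway lists (y axis), with the list median as a bar and the members in red. PTHLH at -0.68 and NMB at -0.77 lie to the left of the other tested genes of their own lists, of which there are 1 and 3. Nothing can be read from that place, since PTHLH and NMB were chosen for low values with BPA. The genes of all lists shown run from -0.88 (CA9) to 1.55 (ADIPOQ).

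Transcripts of PTHLH, STC1 and STC2 are known to respond to oxygen, stress or TGF-beta signals, so lists of such genes were set beside them. Of 27 tested hypoxia-inducible genes 17 lay below and 10 above control, with a median of -0.09 and 0 passing. Without adjustment, 5 lay lower and 0 higher at a p under 0.05, beside 1.70% and 1.87% of all tested genes. The smallest p belonged to the carbonic anhydrase CA9, at 11.4 ± 0.696 against 5.82 ± 1.15 TPM, and to BNIP3, a mitochondrial protein, at 651 ± 38.7 against 473 ± 23.3 TPM, both without overlap. Without BPA replicate 3, 21 lay below. ATF4 and ER stress genes split 11 above and 13 below, with a median of -0.01. None of these 24 passed, the smallest p belonging to PSAT1 and ASNS, enzymes of serine and asparagine synthesis, at 131 ± 3.60 against 117 ± 2.90 TPM and 176 ± 2.03 against 159 ± 4.53 TPM. Without BPA replicate 3, 18 lay below (median -0.13). TGF-beta responsive genes had 12 of 19 above control (median 0.22) and 5 of 19 without BPA replicate 3 (median -0.17), with 0 passing either way. TSC22D1, a transcription regulator, averaged 34.2 ± 1.95 against 48.3 ± 2.61 TPM and the receptor TGFBR2 31.9 ± 0.842 against 37.7 ± 0.797 TPM, both higher without overlap. Over all lists, 184 genes other than the members were tested and 0 passed by limma. Without adjustment 12 of them were higher and 10 lower at a p under 0.05, beside 1.87% and 1.70% of all tested genes.

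Most markers of fat cells lay higher in the BPA libraries, where PTHLH and NMB were lower. Their 14 measured genes summed to 722 to 921 TPM in control libraries and 993 to 1170 TPM in BPA libraries. Of 13 tested, 12 lay above control with a median log2 difference of 0.81, where 6952 of all 12277 tested genes lay above control. The 1 below was LEP, with a log2 difference of -0.24 and no overlap. Without BPA replicate 3, 11 lay above with a median of 0.61. The part of fat cells in the lower PTHLH and NMB values was not tested. Epithelial and keratinocyte markers, of cells known to make PTHLH, summed to 1.53 to 2.43 TPM in control and 1.23 to 5.24 TPM with BPA over 8 measured genes. ELF3 and CLDN4 were the most abundant of them, ELF3 at 0.903 ± 0.383 TPM in control and 0.973 ± 0.502 TPM with BPA. CLDN4 averaged 0.506 ± 0.267 and 1.57 ± 1.34 TPM, with overlap. KRT14 and TP63 were listed at 0 in all control libraries and averaged 0.0324 and 0.00065 TPM with BPA. None of the 8 reached the level for testing, and the part of such cells was not tested. Neuronal and neuroendocrine markers summed to 24.0 to 29.6 TPM in control and 16.9 to 28.8 TPM with BPA over 7 measured genes. Nearly all of that was ENO2 and TUBB3, with SYP listed at 0 in control. The 2 tested genes of this list both lay below control, and 0 passed by limma. Their median log2 difference was -0.31, or -0.50 without BPA replicate 3, and the part of these cells was not tested. Chondrocyte and osteoblast markers summed to 10.5 to 15.2 and 14.3 to 18.8 TPM over 10 measured genes. Most of that was BGLAP, at 6.66 ± 2.18 and 8.71 ± 2.18 TPM, and DMP1, at 2.34 ± 0.223 and 3.5 ± 0.932 TPM, both with overlap, while COL2A1 was listed at 0 in control. The 4 tested had a median log2 difference of 0.20, or 0.08 without BPA replicate 3, and their part was not tested.

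Among the genes whose pattern over the 6 libraries was most like that of PTHLH were RBM11 (r = 0.996), ADGRG6 (0.994), F3 (0.991) and METTL1 (0.989). These Pearson correlations of log2(TPM + 1) describe the same 6 libraries and carry the difference between groups that chose PTHLH; 137 of 9996 genes ranked reached 0.9. These 4 lay lower with BPA without overlap, as did 489 of all tested genes (3.98%). Nothing can be read from that, since they were ranked by likeness to PTHLH, whose groups do not overlap. Tissue factor (F3), for example, averaged 417 ± 22.0 against 317 ± 28.3 TPM. HNF4A was the most opposed (r = -0.995), at 1.06 ± 0.0622 TPM in control and 1.88 ± 0.291 TPM with BPA.

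For NMB the most alike were WDR5 (r = 0.996), ARHGDIG (0.995), CENPS (0.991), RCN1 (0.985) and DNAJB5 (0.970), and 48 of 9996 genes reached 0.9. These correlations too carry the difference between groups that chose NMB. Log2 differences of the 5 genes ran from -0.56 in the cochaperone gene DNAJB5 to -0.11 in RCN1, an ER calcium-binding protein gene. SNRK, a kinase gene, was the most opposed (r = -0.996), with a log2 difference of 0.24.

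The genes next to PTHLH and NMB on the chromosome overlapped between groups. In the order of the dog assembly UU_Cfam_GSD_1.0, the protein-coding neighbours of PTHLH are KLHL42 and CCDC91, with log2 differences of 0.05 (SE 0.11) and -0.19 (SE 0.13). Those of NMB are WDR73 and SEC11A, with log2 differences of -0.02 (SE 0.08) and -0.18 (SE 0.12).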

How the data were processed

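The file deposited by the authors gives log2 values of 23299 genes and is titled normalized log TPM. Raising 2 to each value and subtracting 1 gave 1000000 per library, so the unit was taken as log2(TPM + 1), in which 1 is the pseudocount. Per the labels' protocols, libraries were stranded and made from mRNA. Not given in the sources used here are the aligner, counter, genome build and gene models, nor the treatment of reads shared by similar genes. Groups and columns were matched by sample title.

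The 12277 genes averaging 1 or more on that scale entered 1 linear model (limma 3.58.1, R 4.3.3; moderated with a trend on level, two-sided, Benjamini-Hochberg, threshold 0.05). PTH1R and STC1 lay under the filter; their values come from a fit without it. The test was tried on simulated data with 200 changed genes, all with larger changes than PTHLH and NMB. Those values were drawn independently for each gene, without the component that the real libraries share. That trial therefore cannot show how the test behaves on these libraries. Members, the 19 gene lists and the tests were chosen with earlier results of these data known. Named genes were the members, a fixed set of partners, the 2 genes of smallest p per pathway list and the 5 most alike and 1 most opposed gene for PTHLH and NMB; 1 of those most like PTHLH is not reported here. PTH2 and IHH, among the partners, were not analysed here. Alternatives covered filter, pseudocount, scaling, model, weights, replicate block and left-out libraries.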

Additional observations from a re-analysis of the deposited data

How the results depend on the processing

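PTHLH and NMB were chosen on this contrast and their groups do not overlap, so their values under alternatives describe size and support nothing. They had adjusted p values by limma from 0.409 to 1.0 over alternatives without array weights. A pseudocount of 5 gave log2 differences of -0.42 for PTHLH and -0.52 for NMB. STC1 went from 0.48 with a pseudocount of 0.1 to 0.05 with 5. Under the stricter filter PTHLH was not tested. Leaving out each library gave -0.03 to 0.11 for PTH1R, 0.12 to 0.26 for STC1 and -0.34 to 0.04 for STC2. Genes called numbered 6 of 23299 without filter. Of 12277, 2 were called without BPA replicate 3 and control replicate 2 together, and 0 to 1 with each library left out. No member was among these. The 1 gene, named after its value was seen, was MIR29C-1, at a log2 difference of -4.52 without BPA replicate 3. Genes at an unadjusted p under 0.05 numbered 1066 of 23299 without filter and 230 of 7453 under the stricter filter, beside 439 of 12277 in the main fit. Of 12277, they numbered 721 without both libraries, and 176 (without control replicate 3) to 949 (without BPA replicate 1) with each left out. Default array weights did not converge and gave BPA replicate 2 a weight of 6490. That fit called 4629 of 12277 genes, with 6169 at an unadjusted p under 0.05 and 82 called among the 184 list genes. The gene-by-gene method, added after seeing this, called 881 of 12277, with 3728 unadjusted and 37 of 184 in the lists. It gave weights of 7.07 to BPA replicate 2 and 0.115 to BPA replicate 3. Under the gene-by-gene method PTHLH and NMB had limma adjusted p values of 0.00931 and 0.0202, which are no support for them, for the reason given above. Deviations from the group means correlated across genes at 0.72, -0.44 and -0.23 for replicate numbers 1, 2 and 3. The first component held 79.8% of the variance, so these values mostly follow the place of each library on it. They cannot show whether libraries of the same number are paired. The replicate block left 264 genes at an unadjusted p under 0.05, 0 called, and PTHLH at -0.68 and NMB at -0.77. Of 340 list medians under alternatives, 14 moved by more than the spread between replicates. That spread includes BPA replicate 3, which widens it, so the count does not show that the lists are stable. Without that library the stanniocalcin list went from 0.13 to -0.34 (spread 0.54) and the hedgehog list from 0.20 to -0.11 (spread 0.41). Neither was counted as moved. Depth is unknown, so the precision of genes under 1 TPM cannot be stated.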
